A study of Mus musculus with 28 samples.

Results

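Ldb1 was mapped by chromatin immunoprecipitation and sequencing (ChIP-seq) in mouse neurons sorted on the odorant receptor Olfr1507 and in mature olfactory sensory neurons (mOSN) at large. The set described here holds the Ldb1 peaks of the second Olfr1507 library, on chromosomes 1 to 19, X and Y, that shared no base with a peak of any of the 3 mOSN Ldb1 lists. They were thus selected on the measured peak positions of these 4 libraries. They number 2582 of the 21250 peaks of that library (12.2%), are called absent peaks below, and leave 18668 others that overlapped a mOSN peak. The first Olfr1507 library took no part in this choice.

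The Olfr1507 cells came from M28-IRES-GFP mice (2 Ldb1 libraries), M28 being an older name of Olfr1507, and the mOSN from OMP-IRES-GFP mice (3 Ldb1, 2 CTCF and 2 Rad21 libraries). Neurons without Lhx2 (2 Ldb1 libraries) came from mice with OMP-IRES-Cre, a driver active from Omp, a gene of mature neurons, with Lhx2fl/fl, the allele it deletes, and with the reporter allele Rosa-CAG-tdtom+/fl. All cells were fixed with formaldehyde before sorting. Receptor identity, reporter allele and mouse line differ together between the Olfr1507 and mOSN groups and cannot be told apart. The labels used here state neither ages nor whether each library had its own animals, and the spread between libraries that p-values rest on may be technical.

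Ldb1 binds no DNA itself; it is brought to chromatin by LIM-homeodomain factors such as Lhx2 and can join distant sites by binding to itself. In olfactory neurons Lhx2 and Ebf factors occupy enhancers of odorant receptor genes on many chromosomes, and each neuron settles on the expression of a single receptor gene. CTCF is a DNA-binding protein of domain boundaries, and Rad21 is a subunit of cohesin.

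Of the 2582 absent peaks, 126 lay over a promoter window of a RefSeq transcript start, which runs from 250 bases before to 50 bases after the start. They covered 156 of 32851 windows (0.475%) and 119 protein-coding genes. The windows of 4 of the 6 protein-coding genes with the highest-scoring such peaks are printed to show what the absent peaks cover at promoters. Those of Myo1h (score 21) and Plppr4 (score 20) are not printed, and their peaks overlapped no CTCF, Rad21 or Lhx2 KO Ldb1 peak. They come from the RefSeq table of GRCm38.p6, the assembly behind mm10, are cut to the bases under the peak and run 5′ to 3′ on the gene's strand. Capitals mark matches, on either strand, to any of 11 short motifs that were searched.
Ppargc1a: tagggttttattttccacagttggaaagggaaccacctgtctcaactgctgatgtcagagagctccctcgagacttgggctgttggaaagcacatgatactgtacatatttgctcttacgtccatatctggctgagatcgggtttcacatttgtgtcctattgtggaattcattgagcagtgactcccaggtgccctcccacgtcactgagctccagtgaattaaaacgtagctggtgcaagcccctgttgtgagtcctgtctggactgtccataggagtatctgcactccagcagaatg
Dennd4a: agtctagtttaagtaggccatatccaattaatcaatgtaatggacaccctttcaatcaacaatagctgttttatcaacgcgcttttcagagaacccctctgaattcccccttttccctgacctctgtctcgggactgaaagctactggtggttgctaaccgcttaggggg
Twf1: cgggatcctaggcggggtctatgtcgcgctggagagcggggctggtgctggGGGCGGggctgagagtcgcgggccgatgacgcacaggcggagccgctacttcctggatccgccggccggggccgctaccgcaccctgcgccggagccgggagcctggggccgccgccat
Camk2d: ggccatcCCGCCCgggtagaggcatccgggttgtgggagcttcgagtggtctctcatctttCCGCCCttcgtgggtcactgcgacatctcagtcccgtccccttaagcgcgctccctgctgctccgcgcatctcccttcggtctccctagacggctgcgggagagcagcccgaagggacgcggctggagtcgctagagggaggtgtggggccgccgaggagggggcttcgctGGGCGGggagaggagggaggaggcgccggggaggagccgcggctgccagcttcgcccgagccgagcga
The stretch of Ppargc1a, a coactivator of mitochondrial gene programmes, is chr5:51567676-51567975 on the minus strand, under a peak of score 28 with a Rad21 peak. That of Dennd4a, a regulator of Rab GTPases, is chr9:64810761-64810930 on the plus strand, under a peak of score 22. Twf1, which encodes an actin monomer-binding protein, is represented by chr15:94589775-94589944 on the minus strand, under a peak of score 21 that overlapped CTCF, Rad21 and Lhx2 KO Ldb1 peaks. That of Camk2d, a calcium- and calmodulin-dependent kinase, is chr3:126596701-126597000 on the plus strand, under a peak of score 20 with CTCF and Rad21 peaks. The capitals in Twf1 and Camk2d are matches to GGGCGG, the core bound by SP and KLF factors. The stretches of Ppargc1a and Dennd4a hold no match to the motifs searched. The peaks at Ppargc1a, Dennd4a, Twf1 and Camk2d lay 5651, 142, 308 and 295 bases from the nearest mOSN Ldb1 peak.

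Windows under absent peaks rarely held the homeodomain core TAATTA, which Lhx2 can bind. It was in 3 of 156 such windows (1.92%), in 8.66% of the 1317 windows under the other peaks of the same list and in 5.29% of all windows. GGGCGG was in 60.3%, 63.1% and 35.7% in the same order of sets. The EBF half-sites joined as CCCNNGGG were in 16.7%, 20.4% and 13.7%, and CCANNAGG, a part of the CTCF motif, was in 22.4%, 21.6% and 21.3%. The ETS motif CCGGAAGT (7.69%, 7.44% and 3.89%) and the NRF1 motif GCGCATGC (7.05%, 4.78% and 2.71%) were more frequent in windows under either set of peaks than in all windows. The RFX motif GTTGCCA was in 1.92%, 6.23% and 4.38%, the GATA motif AGATAA in 3.85%, 6.45% and 11.2%, and the AP-1 motif TGANTCA in 5.13%, 6.53% and 7.81%. The E-box CAGCTG was in 13.5%, 14.6% and 16.3%, and the NFI half-site TTGGCA in 12.2%, 13.1% and 14.1%. Median GC content was 60.7% in windows under absent peaks, 59.7% under other peaks and 52.7% over all windows, with observed over expected CpG of 0.822, 0.757 and 0.384. These motif shares count matches anywhere in a window that a peak touches, also at bases outside the peak. Some peaks cover little of a window, as at Pdia4 with 1 base. Motif matches overlap one another in places, neighbouring windows share bases, and windows on chromosome 18 were not used here.

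Most absent peaks were weak. The score is the authors' own whole number for each peak, and it ranks peaks only within a list. Absent peaks had scores from 11 to 227 with a median of 14 and quartiles of 12 and 19. The other peaks of the list had scores from 11 to 624 with a median of 31 and quartiles of 18 and 68. The share of absent peaks was 38.9% in the lowest score decile of the list, 18.7% in decile 3, 6.12% in decile 6, 1.44% in decile 8 and 0.189% (4 of 2114 peaks) in the highest. Only 273 absent peaks (10.6%) stood above percentile 50 of their list, a class that starts at the list's median score of 27.

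**Figure D1:**
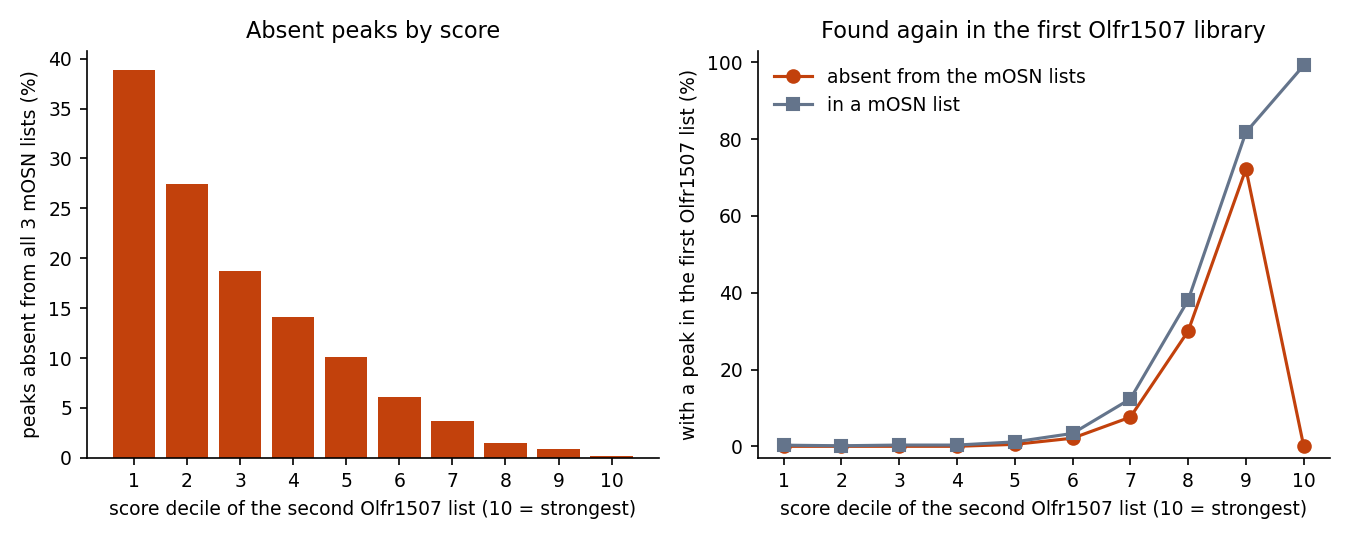
Left, share of the peaks of the second Olfr1507 Ldb1 list that are absent from all 3 mOSN Ldb1 lists (%, y axis) by score decile (x axis, 10 = strongest). Right, share with a peak in the first Olfr1507 list (%) for absent peaks (circles) and the other peaks (squares). Both curves climb with score, to 72.2% (13 of 18 absent peaks) and 81.8% in decile 9, and 0 of 4 absent peaks of the highest decile were found again.

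The first Olfr1507 library had a peak at few absent sites. This held for 32 of 2582 absent peaks (1.24%, 95% Wilson interval 0.879 to 1.74) and for 4957 of the 18668 other peaks (26.6%). That list is short, with 5095 peaks, and the shares followed the score. In decile 7, 7.59% of absent (6 of 79) and 12.3% of other peaks were found again. In decile 8 it was 30.0% (9 of 30) and 38.1%, and in decile 9 72.2% (13 of 18) and 81.8%. The highest decile differed, with 0 of 4 absent peaks and 99.2% of the others. Peaks of 1 library are not replicates, and no p is given. In the other direction, 82 peaks of the first library (1.61%) overlapped no mOSN peak, and 34 of these 82 (41.5%) overlapped a peak of the second. The 32 shared sites had scores of 22 to 120 in the second library (median 65.5) and of 16 to 35 in the first (median 20, percentile 22.5 of its list). They were thus mostly strong in the longer list and low in the shorter one.

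The 10 sites found in both libraries with the highest score in the first were the following. The strongest lay at chr14:72116930-72117309, 314 kb from the nearest listed gene, Gm9195, with scores of 120 in the second and 35 in the first library. Pde1c, the phosphodiesterase that degrades cyclic nucleotides in olfactory cilia, held a site in its gene body at chr6:56533567-56533946, with scores of 88 and 29. The annotation used gives the start and end of a gene but not its exons, introns or UTRs. Sites also lay within Cpxm2 (114 and 27), a carboxypeptidase family member, Ryr3 (56 and 26), a calcium release channel, and Znrf3 (110 and 24), a ubiquitin ligase that lowers Wnt receptor levels. Others lay within Atp8a2 (35 and 24), a phospholipid flippase, and Eif4g3 (85 and 23), a scaffold of translation initiation. Outside genes, sites lay 3.05 kb from Rgs22 (93 and 25), a regulator of G-protein signalling, 47.0 kb from Plpp3 (115 and 24), a lipid phosphatase, and 77.6 kb from Alg10b (53 and 22), an enzyme of N-glycan synthesis. Auts2, Ccdc90b and Frem3 tied with Alg10b at a score of 22 in the first library. Of all 32 sites, 16 lay in gene bodies, 1 within 1 kb of a gene end and 0 in an odorant receptor (OR) cluster; 6 held a Rad21 peak, 2 a CTCF peak and 1 an Lhx2 KO Ldb1 peak.

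Many of the strongest absent peaks lay beside a mOSN Ldb1 peak rather than far from any. The gap between an absent peak and the nearest mOSN peak had a median of 10.8 kb (quartiles 2.68 and 31.9 kb) and reached 1.69 Mb. Of the 2582, 353 (13.7%) had a mOSN peak under 1 kb away and 182 (7.05%) had none within 100 kb. Of the 25 with the highest score 12 lay under 1 kb from one (48.0%), each of them under 1 kb from a peak of all 3 mOSN lists. Among the 273 above percentile 50, 70 did (25.6%), 52 of them beside all 3 lists, and among the others 12.3%, with 81 beside all 3. Beside 248 of the 353 no other peak of the second Olfr1507 library covered the mOSN peak, and beside 105 one did. Peak centres of that library lie at least 712 bases apart, so the smallest gaps left little or no room for another peak there. By the 1-base rule a peak just beside a mOSN peak counts as absent. With gaps under 1 kb counted as shared, 2229 absent peaks were left, 21 of them found in the first library, against 32 under the 1-base rule.

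The strongest absent peak shows this. It lay in Cadps2, which encodes a protein that primes dense-core vesicles for release, at chr6:23304138-23304517, with a score of 227 (percentile 96.5). The nearest peaks of the 3 mOSN lists lay 10, 65 and 16 bases away, at percentiles 96.4, 96.9 and 96.5 of their own lists. Both Rad21 libraries had a peak there and the first Olfr1507 library had none. In Cntnap5b, of a family of neuronal adhesion proteins, an absent peak of score 143 lay 99, 153 and 100 bases from the mOSN peaks. In Rnf150, a RING-finger gene, 1 of score 117 lay 27, 47 and 32 bases from them. Cfap69, which encodes a ciliary protein of olfactory neurons, held 1 of score 96 at gaps of 104, 84 and 130 bases, and there the first Olfr1507 library had a peak too. At these 4 sites each of the 3 mOSN lists had a peak within 153 bases of the Olfr1507 peak, which lay just outside all of them. The side on which each mOSN peak lay was not compared.

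Other strong absent peaks were a few kilobases from strong mOSN sites. In Tmem131l the gap was 2.89 kb to mOSN peaks at percentiles 98.8, 99.1 and 98.7 (score 144). In Pcolce2, a procollagen-processing cofactor, it was 2.47 kb (score 143). The peaks named above in Pde1c, Cpxm2 and near Rgs22 lay 2.38, 1.23 and 1.78 kb away. Farther off were the peaks near Plpp3 (22.5 kb) and near Snapc3, a subunit of the complex that starts small nuclear RNA transcription (score 92, 32.8 kb, found in the first library and in both CTCF libraries). Of the 15 highest-scoring absent peaks (the last, in Eif4g3, tied with 1 near Ccdc90b and 1 in Nek11), 10 were found in the first Olfr1507 library, 10 lay in gene bodies, 5 held a Rad21 peak, 1 a CTCF peak and 0 an Lhx2 KO Ldb1 peak. Of the 32 sites found in both Olfr1507 libraries, 11 lay under 1 kb, 8 from 1 to 10 kb and 13 at least 10 kb from a mOSN peak.

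**Figure D2:**
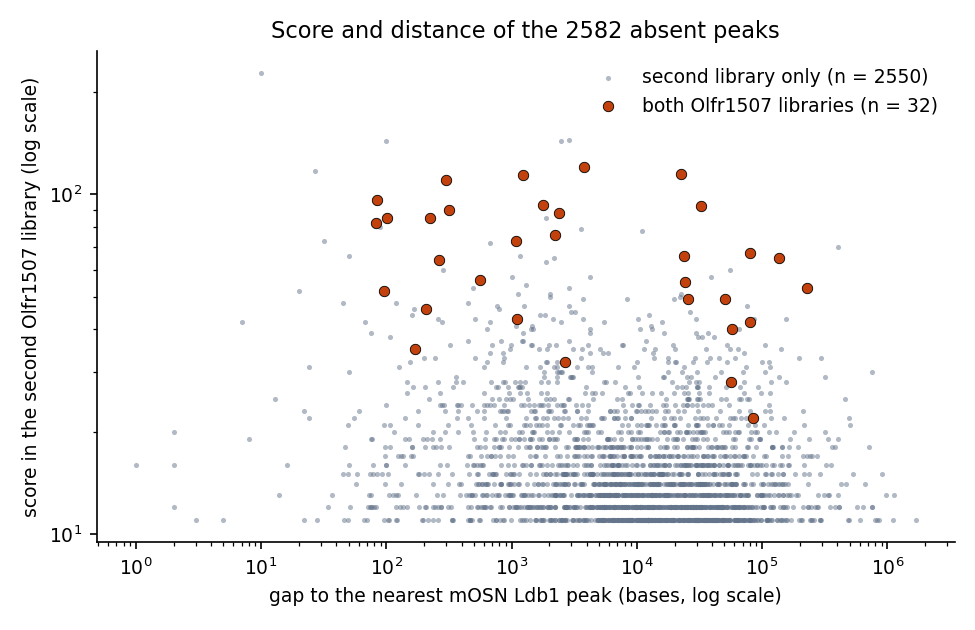
Score in the second Olfr1507 library (y axis, log scale) against the gap to the nearest mOSN Ldb1 peak (x axis, bases, log scale) for the 2582 absent peaks, 1 point each; large points mark the 32 also found in the first Olfr1507 library. Those 32 lie high on the score axis, at 22 to 120, and spread over gaps from 0.082 to 227 kb.

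At the edge of the rule, the 5 absent peaks nearest to a mOSN peak had gaps of 1 to 3 bases. They lay at Apbb1 (score 16), Wnt10a (12), 1600012H06Rik (16), Rragc (20) and Rnf6 (11). The 5 peaks just on the other side overlapped by 2 to 9 bases, at Pip4k2a (141), Nol4l (23), Ptk2 (21), Rpl14 (12) and Map3k13 (12).

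To see whether absent peaks differ from peaks that any library holds alone, each of the 4 long Ldb1 lists was set against the other 3. The second Olfr1507 library held 2582 such peaks (12.2% of its list), and mOSN libraries 1, 2 and 3 held 2144 (8.62%), 4983 (17.3%) and 307 (1.91%). Their median score percentiles, each within its own list, were 17.3 in the Olfr1507 library and 9.74, 16.2 and 16.1 in the mOSN libraries. Those above percentile 50 of their list made up 10.6% in the Olfr1507 library and 2.80%, 3.25% and 11.1% in the mOSN libraries. The Olfr1507 share of peaks held alone, over all scores, lay within the range of the mOSN libraries. Those above percentile 50 were more numerous in the Olfr1507 library, at 273 from a list of 21250. The mOSN libraries held 60, 162 and 34 from lists of 24877, 28879 and 16067. The first Olfr1507 library had a peak at 1.24% of those of the second. It had one at 0.0466%, 0.0803% and, from 5 of 307 peaks, 1.63% of those of the mOSN libraries.

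CTCF peaks lay at 5.93% of the peaks held alone by the Olfr1507 library, and at 19.7%, 12.4% and 13.4% of those of mOSN libraries 1, 2 and 3 (difference from the mOSN mean -9.25 percentage points, mOSN SD 3.97). Rad21 peaks lay at 10.2% of those of the Olfr1507 library, and at 25.6%, 15.3% and 23.8% of those of the mOSN libraries (difference -11.4, SD 5.50). Gene ends within 1 kb counted 9.57% in the Olfr1507 library, and 31.7%, 19.5% and 20.5% in the mOSN libraries (difference -14.4, SD 6.77). OR clusters held 0.349% in the Olfr1507 library, and 0.746%, 0.622% and, at 4 of 307 peaks, the highest share in the mOSN libraries (difference -0.54, SD 0.363). The Olfr1507 library was the lowest of the 4 in each comparison. The CTCF and Rad21 lists came from mOSN, the cells of the mOSN Ldb1 libraries, and neither factor was mapped in Olfr1507 cells. The two-sided exact permutation p was 0.25 for CTCF and Rad21 and 0.5 for gene ends and OR clusters, and 0.5 for all 4 after Benjamini-Hochberg adjustment. With 1 library against 3 the smallest possible p is 0.25, so none of the 4 could pass 0.05. With all mOSN lists limited to 16067 peaks, 5795 peaks were absent and the differences were -1.93, -1.69, -3.38 and -0.26 percentage points for CTCF, Rad21, gene ends and OR clusters (exact permutation p = 1, 1, 1 and 0.75). The Olfr1507 list was not cut in that setting, and with 21250 peaks it was then the longest. With only the peaks above percentile 50 of each list, the OR cluster difference was 0.53.

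**Figure D3:**
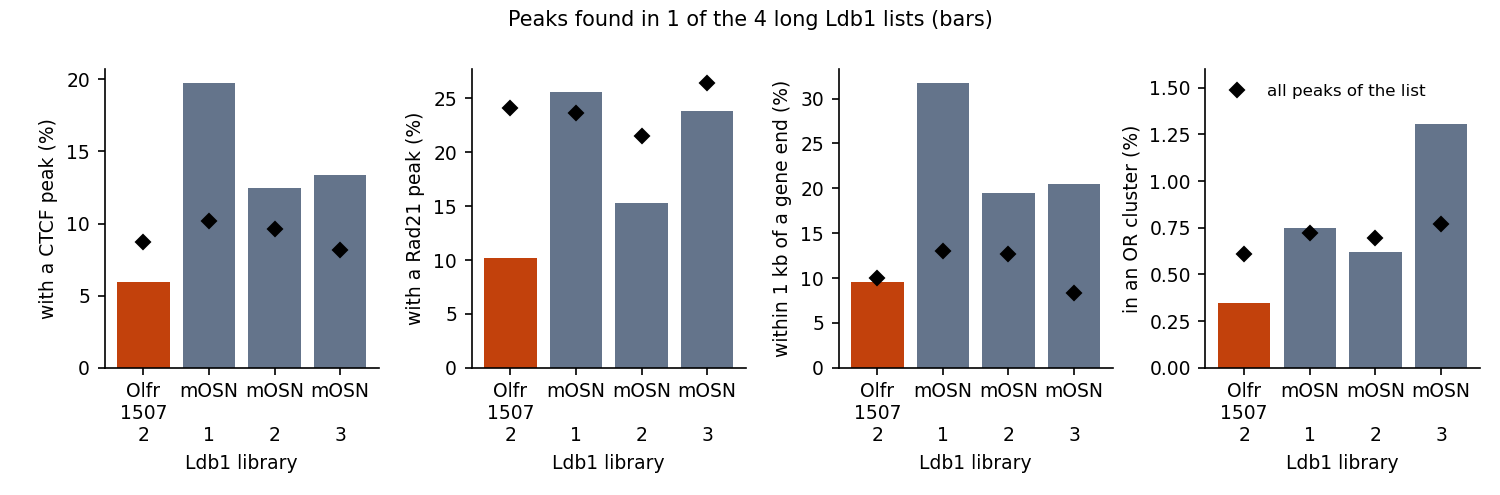
Share (%, y axes) of the peaks held by 1 of the 4 long Ldb1 lists alone (bars; the second Olfr1507 library first, then mOSN libraries 1 to 3) that have a CTCF peak, a Rad21 peak, a gene end within 1 kb or a place in an OR cluster; diamonds give the share over the whole list. The Olfr1507 bar is the lowest in each panel, at 5.93%, 10.2%, 9.57% and 0.349%.

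Within the second Olfr1507 list, the shares with CTCF and Rad21 peaks were also lower at absent peaks. Both factors were mapped in mOSN and not in Olfr1507 cells, and the other peaks were chosen by overlap with mOSN Ldb1 peaks. The effect of this choice on the shares was not tested. CTCF lay at 153 absent peaks (5.93%) and at 9.15% of the other peaks, and Rad21 at 263 (10.2%) and at 26.0%. Above percentile 50 of the score, Rad21 lay at 10.3% of absent and 31.8% of other peaks, and at or below it at 10.2% and 18.6%. Of the absent peaks, 114 held both factors, 149 Rad21 without CTCF, 39 CTCF without Rad21 and 2280 neither. Nearly all Rad21 overlaps came from the second, longer Rad21 list (262 of 263, against 35 with the first). Among absent peaks over promoter windows, the shares with either factor were higher: 69 of the 126 held a Rad21 peak (54.8%) and 46 a CTCF peak (36.5%), against 7.90% and 4.36% of the other absent peaks. They scored 51 at most with a median of 12, and 0 of the 126 were found in the first Olfr1507 library. These shares are over peaks of 1 library and were not tested. Those over promoter windows were not set beside the other peaks of the list over such windows.

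Ldb1 peaks of neurons without Lhx2 were rarer at absent sites than at the other peaks of the list. The first Lhx2 KO library, with 4290 peaks, had a peak at 66 absent peaks (2.56%) and at 14.2% of the other peaks. The second, with 542 peaks, had one at 0 of 2582 (3 counts, taken as the limit that a count of 0 allows, give 0.116%, and the 95% Wilson upper limit is 0.149%) and at 2.55% of the others. Among the peaks held alone by mOSN libraries 1, 2 and 3, the first Lhx2 KO library had a peak at 5.04%, 2.99% and 8.14%. At or below percentile 50, where absent peaks are most frequent, either KO library had a peak at 2.38% of absent and 8.00% of other peaks, and above it at 4.03% and 20.1%. The 66 sites were rich in CTCF or Rad21 peaks (45.5%, against 10.8% of absent peaks without a KO peak) and in gene ends (36.4% against 8.86%). The highest-scoring lay in Pcdh9, a protocadherin gene (82, the 1 such site found in both Olfr1507 libraries), far outside Immp2l (73) and in Fam131c (51); these 3 were chosen after their values were seen. In all, 2219 absent peaks (85.9%) overlapped no peak of any other of the 11 lists. Absence from the 3 mOSN Ldb1 lists was fixed by the rule, so the other peaks have no like share. A CTCF or Rad21 peak lay at 11.7% of absent and 28.2% of other peaks.

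Over all scores, absent peaks lay near genes about as often as the rest of the list, but on either side of percentile 50 of the score their share at gene ends was lower. Of the 2582, 59.8% lay in a gene body and 9.57% within 1 kb of a gene end, against 61.5% and 10.1% of the other peaks. Those between genes lay at a median of 37.0 kb from the nearest gene, against 33.1 kb for the other peaks. At or below percentile 50 of the score, which takes in 2309 of the 2582, gene ends were within 1 kb of 10.4% of absent and 15.2% of other peaks, and above it of 2.20% and 6.14%. Promoter windows lay under 5.37% of absent and 9.74% of other peaks at or below percentile 50, and under 0.733% and 2.79% above it. These shares over the peaks of 1 library were not tested.

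Of 21775 protein-coding genes, 1689 (7.76%) had an absent peak within 10 kb of the gene body, and 36.3% had any peak of the second Olfr1507 list. Genes with an absent peak were long, with a median of 61.7 kb, against 30.6 kb for genes that had only other peaks of the list and 17.2 kb for all genes. List counts are therefore given with the genes' lengths, and were not tested. Olfactory transduction genes had absent peaks at 5 of 20 (median length 67.8 kb), while all 20 had some peak of the second Olfr1507 list. Pde1c had 6 absent peaks among 26 peaks over 583 kb. Pde4a, another phosphodiesterase (highest score 16), Cnga4, a subunit of the cyclic nucleotide-gated channel (13), and Reep1, which helps receptors reach the membrane (13), had 1 each. Thus only Pde1c held an absent peak of a score above the median of the list. None of the 8 mature neuron markers (median length 19.3 kb), among them Omp and the cyclase gene Adcy3, had an absent peak, and all 8 had a peak of the list. With 7.76% of all protein-coding genes having an absent peak, a list of 8 genes is too short to show a lower share.

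Axon guidance genes had absent peaks at 12 of 23, the highest share of the lists, and are the longest, with a median of 297 kb. Slit1, a ligand of Robo receptors, had 3 with a highest score of 65, Plxna4, a semaphorin receptor, had 5 among 33 peaks (33), Robo1 had 1 (30) and Ncam2, an adhesion molecule of olfactory axons, had 1 (28). Regulators of olfactory neurons counted 6 of 22 (median length 85.9 kb). Nfib (24), Ebf3 (21) and Nfia (14) had 3 absent peaks each, and Ebf4 1 (13). Ebf1 had 1 of score 12 among 24 peaks, and Lhx2 and Ldb1 had 0 among 4 and 2. Immature neuron genes counted 3 of 12 (median length 36.9 kb), with Stmn2 (31), Dcx (29) and Ablim1 (19), which act on microtubules and actin. The other lists had at most 1. These were the activity-dependent gene Nr4a1 (12; 1 of 12), the housekeeping gene Ppia (17; 1 of 16), the proliferation marker Mki67 (11; 1 of 10 basal cell genes) and Spi1, a myeloid transcription factor (17; 1 of 11 immune, glial and vascular genes). The genes of these lists are shorter, with median lengths of 6.36, 5.85, 19.8 and 19.6 kb in the same order. No absent peak was found for 9 sustentacular and gland genes (median length 12.3 kb) or 5 microvillous genes (4.27 kb). The same held for 352 vomeronasal receptor genes (0.96 kb) and 39 Hox genes (3.74 kb). None of the genes named from the lists, Pde1c apart, had an absent peak found in the first Olfr1507 library.

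**Figure D4:**
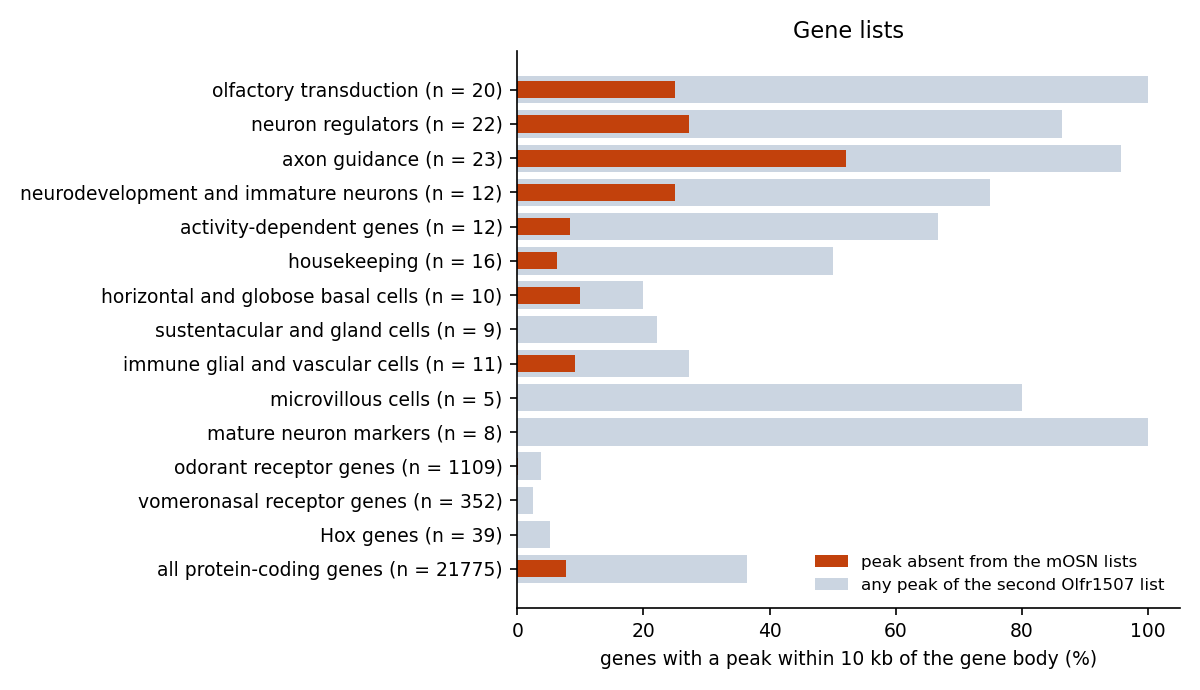
Share of the protein-coding genes of each list (%, x axis; n in brackets) with an absent peak (dark bars) or with any peak of the second Olfr1507 list (light bars) within 10 kb of the gene body. Dark bars reach 52.2% for axon guidance genes, against 7.76% of all protein-coding genes, and light bars reach 100% for olfactory transduction genes and mature neuron markers.

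Some genes gathered several absent peaks, all chosen after their values were seen. Tenm4, a teneurin gene of 740 kb, had 8 among 29 peaks of the list (highest score 49). Asic2, Rbms3, Dlgap2, Kirrel3 and Lsamp had 6 each, among 25, 16, 13, 19 and 23 peaks of the list. Their lengths are 1088, 1057, 758, 555 and 2197 kb. Over the whole list 12.2% of peaks were absent. Groups of at least 3 absent peaks with gaps of up to 50 kb numbered 57 and held 183 absent peaks. This number was not set against groups among the other peaks. The largest lay at chr8:78064220-78120071, with 6 absent peaks over 55.9 kb and 0 other peaks of the list. Its nearest listed gene was Ttc29, which encodes a ciliary protein, and 1 of the 6, with a score of 42 and 111 kb from the gene, was found in the first Olfr1507 library. A group at Rnf152, a ubiquitin ligase gene, held 5, and groups near Uncx, a homeobox gene, at Tshz2 and at Fmn1 held 4 each. The Uncx site of score 64, at chr5:139536255-139536634, was found in the first Olfr1507 library and held peaks of both CTCF and both Rad21 libraries.

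OR clusters held few absent peaks; a cluster here is 3 or more OR genes or pseudogenes no more than 300 kb apart, with flanks of 100 kb. There were 9, in 8 of 43 clusters, beside 121 other peaks of the list. Absent peaks thus made up 6.92% of the peaks of the list in OR clusters and 12.2% elsewhere. None of the 9 was found in the first Olfr1507 library. Of 1109 protein-coding OR genes (median length 0.951 kb), 42 had a peak of the second Olfr1507 list within 10 kb. Only 1 had an absent peak there, Olfr1507 itself.

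The absent peak at Olfr1507 lay at chr14:52495752-52496131, 56 bases past the right end of the annotated gene (chr14:52489935-52495695). Its score of 27 stood at percentile 50.1 of the list. The first Olfr1507 library, the CTCF and Rad21 libraries and both Lhx2 KO libraries had no peak on it, and the nearest mOSN peak was 51.8 kb away. That neighbour is the only other peak of the second Olfr1507 list in the cluster, at chr14:52547902-52548281. It scored 232 there (percentile 96.7) and 69 in the first Olfr1507 list (percentile 90.1), and stood at percentiles 98.2, 98.7 and 97.2 of the 3 mOSN lists; both Lhx2 KO lists also had a peak there. The cluster held 2 further Ldb1 peaks, both in 1 library each: mOSN replicate 2 had one at chr14:52397514-52397833 (score 15), and Lhx2 KO replicate 1 had one left of Olfr1507 at chr14:52487508-52487751 (score 10, percentile 32.3 of its list). The peak at the gene was thus seen in 1 library alone, in cells whose Olfr1507 allele carries a reporter that the mOSN mice lack. An active receptor gene and a modified allele cannot be told apart at this site.

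The other 8 absent peaks in OR clusters were 13.5 to 81.6 kb from the nearest OR gene. The highest-scoring lay between genes on chromosome 2, 50.2 kb from Lrrc55 and 81.6 kb from Olfr987 (31), with a second nearby (18). 1 of score 18 lay 6.25 kb from Tmem225 (Olfr985), and those at Zfp28 (13; Olfr1344), Cnga4 (13; Olfr692), Echs1 (11; Olfr522), Zfp422 (11; Olfr215) and 29.1 kb from Olfr398 (11) were among the weakest of the list.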

How the data were processed

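Each deposited list holds the Ldb1, CTCF or Rad21 peaks of 1 library, called separately. Named in the submitters' processing notes are the build mm10 and the tools HOMER 4.7, Bowtie2 2.3.2, cutadapt 1.9.1, SAMtools 1.3.1, STAR 2.5.3a and Picard, with no roles. Threshold and control of the peak calling are not given in the sources used. The score is the authors' own deposited value, a whole number of unknown scaling, which served to rank peaks within a list only; percentiles are ranks among the peaks of that list. The lists carry no read numbers, so the depth is unknown. Within a list the peaks share 1 width (380 bases in the second Olfr1507 list, 256 in the first, 338, 320 and 316 in the mOSN Ldb1 lists), and the centres of neighbouring peaks lay at least 712 bases apart in the second Olfr1507 list.

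Overlap means 1 shared base. Genes came from a RefSeq table of GRCm38.p6 without strand or exons, with 340 genes on scaffolds left out, and promoter windows from RefSeq sequences of the same build. The planned motif search in whole peaks was not run, since no genome was used here; promoter windows were searched instead. Libraries are the replicates: 1 Olfr1507 library was compared with 3 mOSN libraries by exact permutation, two-sided. Wilson intervals (95%) cover counting error only. The overlap counts were tested on simulated data. Python 3.11.15, pandas 2.3.3, numpy 2.4.6 and scipy 1.17.1 were used.

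The members, the 14 gene lists and the tests were chosen with earlier results of these data known. Named are the 15 absent peaks with the highest score (1 is not described), the 10 with the highest score in the first Olfr1507 library, those in OR clusters, up to 4 genes per list, 5 dense groups, 5 peaks on each side of the rule, and Olfr1507, Lhx2, Ldb1, Ebf1, Omp and Adcy3. The 17 other ChIP-input and RNA samples were not analysed here.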

Additional observations from a re-analysis of the deposited data

How the results depend on the processing

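No paired analysis was possible because 1 Olfr1507 library was set against 3 mOSN libraries, which share 1 replicate number. The number of absent peaks was 2842 with a reciprocal overlap of 50%, 2735 with centres within 200 bases and 2229 with edges within 1000 bases. It was 273 above percentile 50 of the list by score, 5795 with the mOSN lists limited to 16067 peaks, and 2705 to 3898 with 1 mOSN library left out, the highest without mOSN replicate 2. The number found in the first Olfr1507 library was 32, against 21 with edges within 1000 bases, 59 with the limited mOSN lists and 35 to 48 with 1 mOSN library left out. The library differences in CTCF, Rad21 and gene-end shares stayed negative under all 8 alternatives. With 1 mOSN library left out they ranged from -9.85 to -5.92 for CTCF, -9.48 to -7.34 for Rad21, -15.7 to -9.14 for gene ends and -0.67 to -0.29 for OR clusters. The OR cluster difference turned to 0.53 (exact permutation p = 0.25) above percentile 50 of each list by score, where it rests on 2 absent peaks; the cause was not tested. None of these tests could reach 0.05, so the direction alone is compared. An absent peak means no peak past the authors' threshold in 3 lists; at unknown depth it does not show that Ldb1 was missing there.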

Other observations

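The first Olfr1507 library had 82 peaks that overlapped no mOSN Ldb1 peak, and 48 of these also overlapped no peak of the second Olfr1507 library. The hairpins of 2 microRNAs lay under absent peaks of low score, Mir5122 (score 13) and Mir3105 (score 12).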
